A study of Saccharomyces cerevisiae with 24 samples.

Results

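The sulfate assimilation and methionine genes of budding yeast examined here are 10 of the 6692 ORFs in the count table. They were picked by name from what their products do, with earlier results of these data known. They are *MET3* (YJR010W), *MET14* (YKL001C), *MET16* (YPR167C), *MET5* (YJR137C), *MET10* (YFR030W), *MET2* (YNL277W), *MET6* (YER091C), *SAM1* (YLR180W), *SAM2* (YDR502C) and *MUP1* (YGR055W). Their RNA was measured in the WT strain JS1256, in the *snf1*∆ strain JS1394, in which *kanMX4* replaces the gene of the Snf1 kinase, and in JS1416, a single spontaneous isolate out of a JS1394 culture that carries *snf1*∆ *cyc8-G337S*, a change in the Cyc8 subunit of the Cyc8-Tup1 corepressor. Libraries numbered 3 per time (log phase, 24 hr, 48 hr) for WT and for *snf1*∆, whereas those of JS1416 numbered 1, 2 and 3 in the same order. The labels give 5 hr and YPD medium for the log phase, whereas the methods of the study give a later time and SC medium, so the medium of the cultures is uncertain between these sources. All strains were of the BY4741/BY4742 background, and the methods describe triplicate cultures from which aliquots were taken at log and at 24 hr.

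Yeast cells take up sulfate and reduce it to sulfide in a fixed series of steps. ATP sulfurylase (*MET3*) and APS kinase (*MET14*) activate sulfate, PAPS reductase (*MET16*) makes sulfite, and sulfite reductase, with its alpha subunit *MET10* and beta subunit *MET5*, makes sulfide. *MET2* encodes the enzyme that acetylates homoserine, the carbon backbone onto which Met17 places the sulfide, and methionine synthase (*MET6*) then methylates the resulting homocysteine. *SAM1* and *SAM2* encode AdoMet synthetases, which turn methionine into the methyl donor of the cell, and *MUP1* encodes the high-affinity methionine permease. The activator Met4 does not bind DNA by itself and is brought to these promoters by Cbf1 and by the related zinc finger proteins Met31 and Met32. When methionine or cysteine is plentiful, the F-box protein Met30 directs the ubiquitination of Met4, and the genes are turned down.

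*MET17*, whose product joins sulfide to acetylhomoserine and which is deleted in BY4741 (where it is also called *MET15*), had 0 counts in all 24 libraries. At 3 counts, this allows up to 0.103 CPM (counts scaled to the size of the library) in the deepest library and up to 4.02 CPM in the shallowest. *LYS2*, which BY4742 lacks, was present in every library. In all 3 strains, therefore, the members were read in cells without detectable *MET17* RNA, and the controls share this with the mutants.

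The promoters are shown first because the members differ in which motifs of these regulators they hold. The motifs searched on both strands of the 500 bp before each start codon were CACGTG, the letters bound by Cbf1, TGTGGC, the core bound by Met31 and Met32, and AAACTGTGG, a longer form that shares 5 letters with TGTGGC where a C follows. CACGTG was found before 8 of the 10 members and in 6.21% of 6005 promoters of this length, and TGTGGC before 8 of 10 and in 14.2%. Both stood together before 7 members, which are the 5 sulfate assimilation genes, *MET2* and *SAM2*, and before 1.15% of all promoters. AAACTGTGG was found before 5 members and in 0.833% of promoters. The stretches that hold the matches are read 5′ to 3′ on the strand of the gene in the R64 build (RefSeq), with the matches in capitals. GCCACA and CCACAGTTT are TGTGGC and AAACTGTGG on the other strand.

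In the sulfate assimilation genes, CACGTG lies farther from the start codon than TGTGGC, in 1 stretch except for *MET3*, where they stand in separate ones, and *MET3* (chromosome X), *MET5* (chromosome X) and *MET10* (chromosome VI) have CACGTG 2 times:
MET3 chrX:455854-455892 (+): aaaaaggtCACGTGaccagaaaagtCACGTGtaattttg
MET3 chrX:455977-456002 (+): ataacaaaGCCACAGTTTtacaactt
MET14 chrXI:439564-439621 (-): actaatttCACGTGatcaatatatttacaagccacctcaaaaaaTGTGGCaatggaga
MET16 chrXVI:877776-877818 (-): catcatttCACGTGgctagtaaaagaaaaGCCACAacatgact
MET5 chrX:683547-683626 (-): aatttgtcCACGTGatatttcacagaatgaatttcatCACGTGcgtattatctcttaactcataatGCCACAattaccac
MET10 chrVI:213055-213120 (+): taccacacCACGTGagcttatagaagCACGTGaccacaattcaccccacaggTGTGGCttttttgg

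In the other members the layout varies, although CACGTG also lies farther out than TGTGGC before *MET2* and *SAM2*. The paralogs *SAM1* and *SAM2* differ, since the window before *SAM1* holds AAACTGTGG without CACGTG:
MET2 chrXIV:116988-117036 (+): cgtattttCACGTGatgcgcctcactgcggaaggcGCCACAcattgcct
MET6 chrV:342649-342667 (-): tatttCACGTGacttacaa
MET6 chrV:342458-342482 (-): cggtcgcaAAACTGTGGtagtcata
SAM1 chrXII:514977-515001 (+): tcacaggaAAACTGTGGtggcgccc
SAM2 chrIV:1454747-1454795 (-): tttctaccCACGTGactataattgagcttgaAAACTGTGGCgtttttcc
MUP1 chrVII:598945-599000 (+): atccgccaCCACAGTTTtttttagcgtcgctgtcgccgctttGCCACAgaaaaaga
MUP1 chrVII:599129-599150 (+): aataaactGCCACAgttgactc

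**Figure D1:**
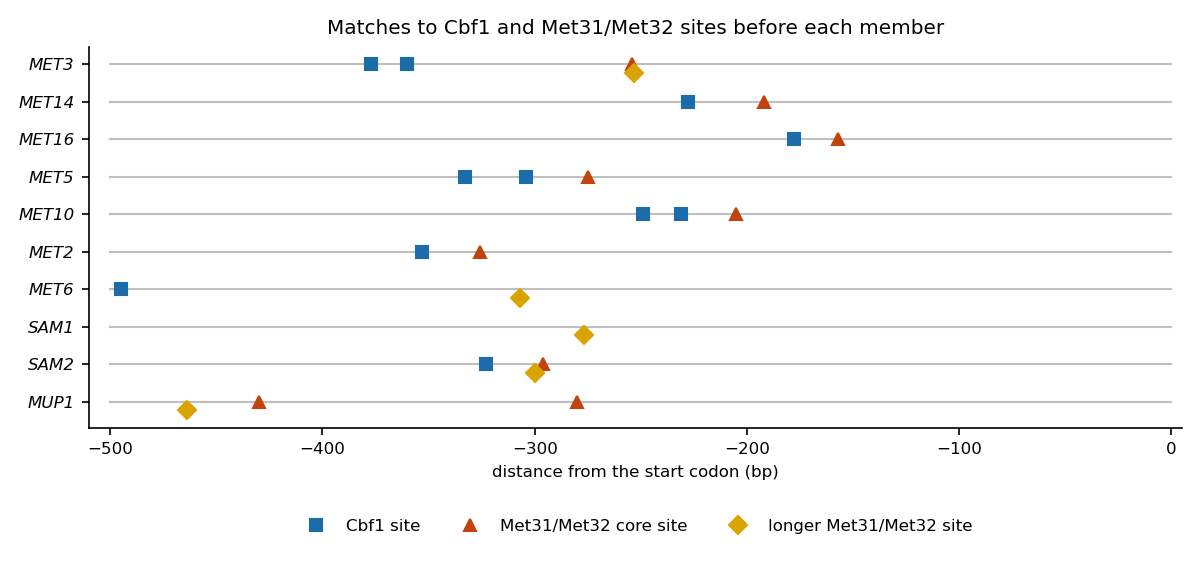
Positions of the motif matches before each member, as the distance in bp from the start codon, with squares for CACGTG, triangles for TGTGGC and diamonds for AAACTGTGG. In the 5 sulfate assimilation genes, *MET2* and *SAM2*, the squares lie farther from the start codon than the triangles, and *SAM1* and *MUP1* have no square within 500 bp.

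None of these stretches lies inside a coding gene. The members themselves each have 1 coding exon, none overlaps another coding gene, and no 75-base window of any member, the length of a read, is repeated elsewhere in the genome. This includes *SAM1* (chromosome XII, 515262 to 516410) and *SAM2* (chromosome IV, 1453310 to 1454464), whose coding sequences are 82.8% identical with a longest shared run of 59 bases.

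The libraries held between 747098 and 29070805 counts, and all 10 members were among the 6616 genes that passed edgeR's filter on low counts. *SNF1* had 46.2 to 71.7 CPM in the WT libraries and 0.182 to 4.08 CPM in the libraries of the strains that lack it. At 48 hr, 2 libraries stood apart from their labels. The library labelled *snf1*∆ replicate 3 correlated across genes at 0.984 and 0.939 with JS1416 replicates 2 and 3 and at 0.905 and 0.901 with *snf1*∆ replicates 1 and 2, and the library labelled JS1416 replicate 1 correlated at 0.984 and 0.980 with *snf1*∆ replicates 1 and 2 and at 0.928 and 0.884 with the other JS1416 libraries. Both were kept under their labels, and because all 24 libraries share 1 estimate of the spread, results at every time are given also without this pair. Adjusted p values are those of the quasi-likelihood test in edgeR, corrected by the Benjamini-Hochberg method over all tested genes, a gene was called where this was under 0.05, and differences are log2 fold changes of CPM with their standard error (SE). They compare shares of the RNA pool, so fewer molecules per cell and a different total cannot be told apart.

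Compared per kb of coding sequence, the members covered a wide range of levels at log in WT. *SAM1* (963 ± 79.7 CPM per kb, SD, n = 3), *SAM2* (845 ± 80.4) and *MET6* (545 ± 18.5) were the most abundant, followed by *MUP1* (137 ± 14.8). The remaining 6 members lay between 12.6 CPM per kb for *MET5* and 24.7 for *MET14*. *SAM1* and *SAM2* were within their spread of each other, as were the neighbours in this order among *MET2*, *MET10* and *MET16* (16.4 ± 1.14, 16.0 ± 2.14 and 15.8 ± 3.93 CPM per kb).

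**Figure D2:**
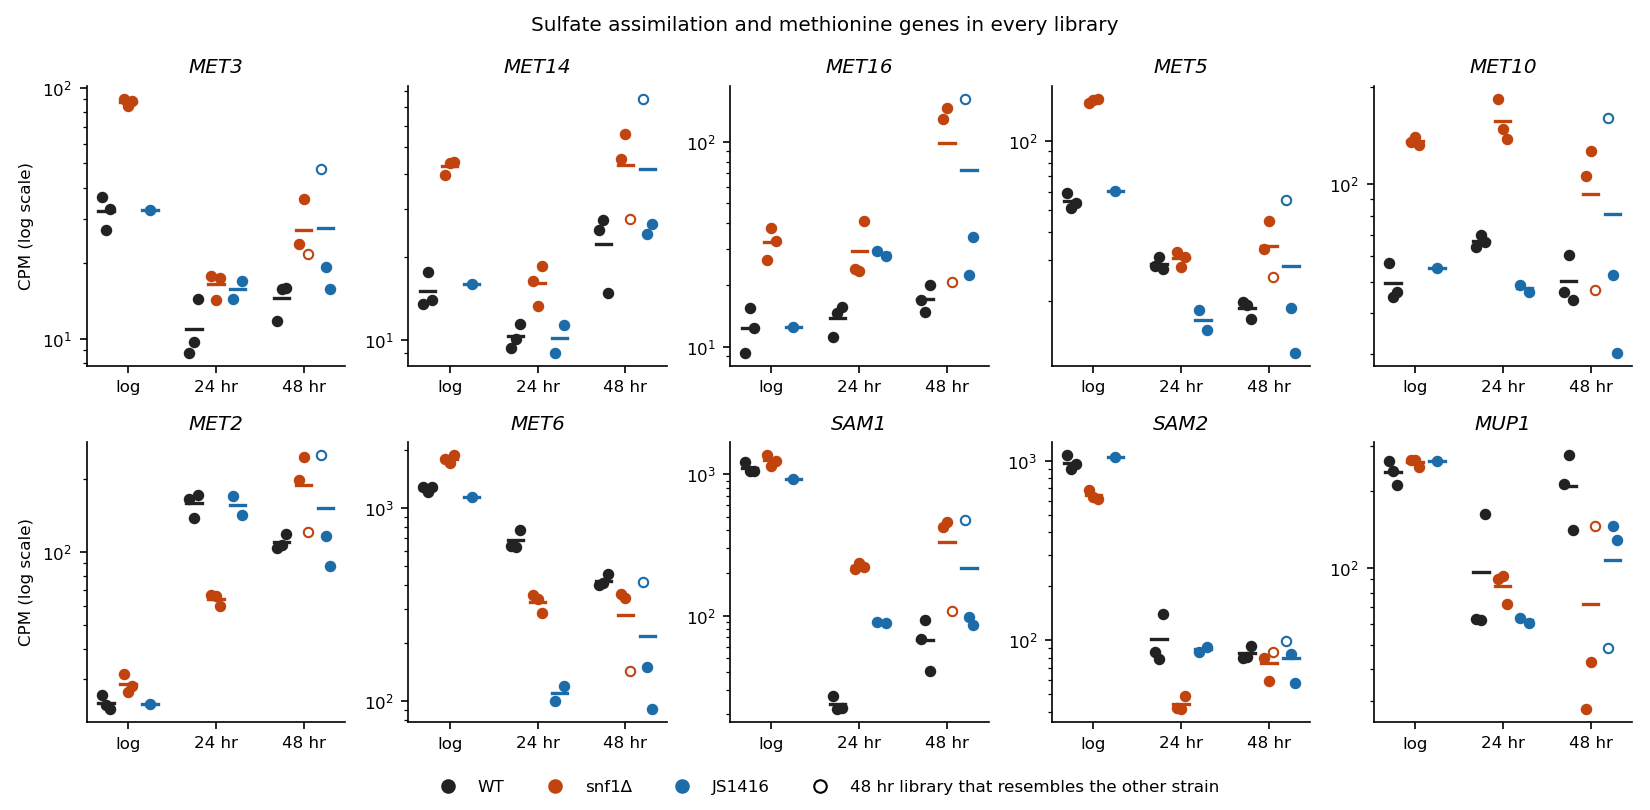
CPM of each member in every library (log axis), by strain and time, with a bar at the mean of each group and open circles for the 2 libraries at 48 hr that resemble the other strain. *MET3*, *MET14*, *MET16*, *MET5* and *MET10* read higher in all 3 *snf1*∆ libraries than in WT at log, *SAM1* falls from 1047 CPM or more at log to 26.9 CPM or less at 24 hr in WT, and the open circles sit with the other strain in most panels.

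The first question was how the strains differed while glucose was present. At log, 4 of the 5 genes that reduce sulfate to sulfide were higher in *snf1*∆ than in WT, and the exception, *MET16*, did not pass the test. Of the 10 members, 4 were called, all of them higher (2.12% of the tested genes passed, 1.69% upwards and 0.423% downwards), and the 4 were *MET3*, *MET14*, *MET5* and *MET10*. The median log2 fold change of the 5 genes was 1.45, beside -0.04 over all tested genes, and the 5 values lay between 1.38 and 1.50.

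*MET3* had 36.8, 27.2 and 32.9 CPM in the 3 WT libraries and 90.6, 84.5 and 88.8 CPM in *snf1*∆ (log2 fold change 1.45, SE 0.26, adjusted p = 0.00213). *MET14* had 13.5, 17.6 and 14.0 CPM in WT and 39.6, 44.1 and 44.3 CPM in *snf1*∆ (1.50, SE 0.32, adjusted p = 0.00970). The lowest *snf1*∆ library was more than 2 times the highest WT library for both of these genes of sulfate activation. *MET5* had 59.0, 50.9 and 53.5 CPM in WT and 147, 150.3 and 153 CPM in *snf1*∆ (1.46, SE 0.28, adjusted p = 0.00483). *MET10*, for the partner subunit of sulfite reductase, had 57.2, 44.9 and 46.7 CPM in WT and 135, 139.5 and 132 CPM in *snf1*∆ (1.45, SE 0.37, adjusted p = 0.0410). *MET16* had 9.32, 15.5 and 12.3 CPM in WT and 26.6, 38.1 and 32.6 CPM in *snf1*∆, without overlap, but its difference did not pass the test (1.38, SE 0.56, adjusted p = 0.353).

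The JS1416 library at log read 32.8 CPM for *MET3*, 16.0 for *MET14*, 12.5 for *MET16*, 60.1 for *MET5* and 55.0 for *MET10*. All 5 values were below every *snf1*∆ library, and 4 of them lay within the range of the WT libraries, with *MET5* just above it. Over the 10 members, this library was below every *snf1*∆ library for 8 and within the WT range for 7. The same counts over all tested genes were not taken, so these 2 counts have no background and do not set the members apart. Of the 4 members called higher in *snf1*∆ at log, 4 were below every *snf1*∆ library and 3 within the WT range. Among the 112 genes called higher in *snf1*∆ at log, 86.6% were below every *snf1*∆ library in JS1416 and 20.5% within the WT range, a set chosen on the same *snf1*∆ libraries. With 1 library there is no replicate check and no test.

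The genes downstream of sulfide were nearer to WT at log. *MET6* had 1278, 1208 and 1285 CPM in WT and 1796, 1704 and 1881 CPM in *snf1*∆ (log2 fold change 0.51, SE 0.36, adjusted p = 0.686). *SAM2* had 1076, 894 and 956 CPM in WT and 689, 627 and 609 CPM in *snf1*∆ (-0.60, SE 0.20, adjusted p = 0.176), and 1046 CPM in JS1416. The libraries of both genes did not overlap between the strains, in opposite directions, and neither gene was called. *SAM1* (1047 to 1212 CPM in WT, 1145 to 1365 in *snf1*∆) and *MUP1* (211 to 261 and 248 to 264 CPM) overlapped between them, and *MET2* stood at 22.6 to 25.9 CPM in WT and 26.6 to 31.7 CPM in *snf1*∆.

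When the pair of 48 hr libraries was left out, 7 members were called at log (9.12% of all genes). *MET16* (1.38, adjusted p = 1.36e-05) and *MET6* (0.51, adjusted p = 0.0213) were then called higher and *SAM2* lower (-0.60, adjusted p = 0.0182), while the fold changes stayed as they were. In the other direction, *MET10* lost its call without any 1 of the 6 log libraries (adjusted p up to 0.219), and *MET14* without WT replicate 1 or 3 (adjusted p up to 0.0697).

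**Figure D3:**
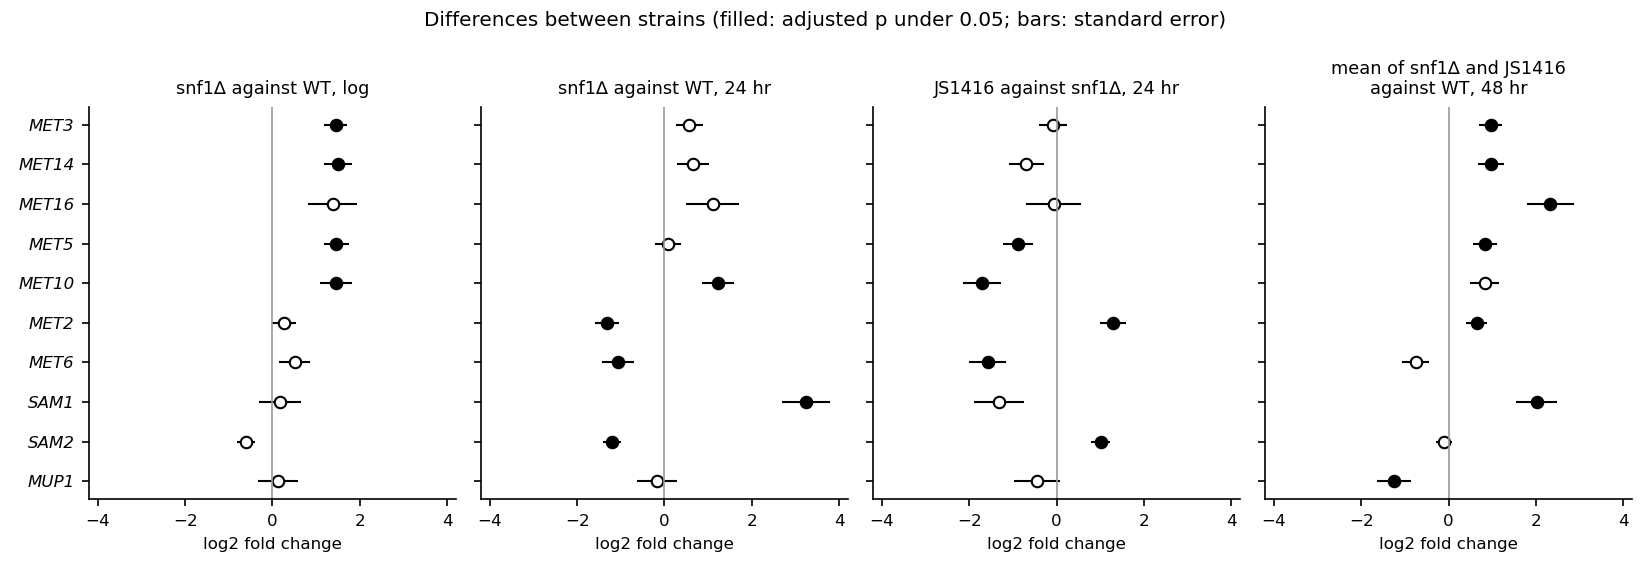
Log2 fold changes of the members in 4 comparisons, with SE as bars and filled circles at an adjusted p under 0.05. At log the 5 sulfate assimilation genes lie between 1.38 and 1.50, with *MET16* as an open circle, whereas at 24 hr *SAM1* stands at 3.25 and *MET2*, *MET6* and *SAM2* on the lower side.

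The next question was how expression moved as the cultures left log phase. In WT, 7 members were called between log and 24 hr, 1 higher and 6 lower, in a comparison where 79.7% of all genes were called, 41.2% higher and 38.5% lower. With library size alone in place of TMM, the calls over all genes went from 2725 higher and 2550 lower to 1971 and 3154, and *MET14* was called lower too. The AdoMet synthetase genes fell the most. *SAM1* dropped from 1212, 1047 and 1059.5 CPM to 26.9, 21.8 and 22.2 CPM, a 46.9-fold decrease (log2 fold change -5.55, SE 0.60, adjusted p = 3.56e-08). *SAM2* dropped from 1076, 894 and 956 CPM to 86.3, 78.9 and 139 CPM, a 9.59-fold decrease (-3.26, SE 0.22, adjusted p = 1.87e-11). By rank of absolute change, *SAM1* was 147th and *SAM2* was 948th of the 6616 genes.

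*MET2* went the opposite way. It rose from 25.9, 23.6 and 22.6 CPM to 166, 139 and 172 CPM in WT (log2 fold change 2.72, SE 0.28, adjusted p = 2.18e-08). *MET3* fell by 1.53 on the log2 scale (SE 0.29), from 27.2 to 36.8 CPM at log to 8.77, 9.66 and 14.4 CPM, and *MET5* fell by 0.91 (SE 0.29), to 28.4, 31.0 and 27.5 CPM. Also lower were *MUP1* (-1.30, SE 0.46, adjusted p = 0.0144) and *MET6* (-0.89, SE 0.36, adjusted p = 0.0293), the latter at 638, 627 and 771 CPM. For *MUP1* the WT libraries at 24 hr were 62.9, 62.2 and 163 CPM, so that replicate 3 stood well above the others. The call of *MUP1* was lost without WT replicate 1 or 2 at 24 hr, and that of *MET6* in 4 of the 6 cases with 1 library left out (adjusted p up to 0.0786). Leaving out the pair of 48 hr libraries gave 9 calls (84.9% of all genes), adding *MET10* (0.43, adjusted p = 0.00770) on the higher and *MET14* (-0.53, adjusted p = 0.0176) on the lower side.

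In *snf1*∆, 8 members were called between log and 24 hr, 1 higher and 7 lower (67.0% of all genes, 36.5% higher and 30.5% lower). *SAM1* fell only to 215, 237 and 221 CPM (log2 fold change -2.48, SE 0.51, adjusted p = 2.65e-04), 9.49-fold above WT at that time. *MET6* fell further than in WT, to 352, 337.4 and 286 CPM (-2.46, SE 0.38, adjusted p = 9.27e-06), and *MET5* fell from 147 to 153 CPM to 32.7, 28.1 and 31.2 CPM (-2.29, SE 0.30, adjusted p = 1.12e-06). *MET2* rose to 66.4, 65.9 and 60.1 CPM (1.16, SE 0.27, adjusted p = 9.21e-04), which is below every WT library at 24 hr. The same 8 members were called without the pair of 48 hr libraries (75.8% of all genes).

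Tested as the difference between the 2 responses, 4 members were called, 1 higher and 3 lower (54.9% of all genes, 29.3% higher and 25.6% lower). The change from log to 24 hr was less negative in *snf1*∆ for *SAM1*, with a difference of 3.07 (SE 0.72, adjusted p = 0.00120). It was lower in *snf1*∆ for *MET6* (-1.58, SE 0.51, adjusted p = 0.0129), *MET2* (-1.57, SE 0.38, adjusted p = 0.00175) and *MET5* (-1.38, SE 0.41, adjusted p = 0.00788). With that pair left out, 7 members were called (66.7% of all genes), with *MET3*, *MET14* and *SAM2* added on the lower side. With library size alone the same 4 members were called, and the calls over all genes went from 1937 higher and 1695 lower to 2532 and 1129.

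Compared at 24 hr itself, *snf1*∆ differed from WT in 5 members, 2 higher and 3 lower (64.0% of all genes, 33.7% higher and 30.3% lower). The 2 AdoMet synthetase genes were changed in opposite directions. *SAM1* was higher in *snf1*∆ at 215, 237 and 221 CPM, beside 26.9, 21.8 and 22.2 CPM in WT (log2 fold change 3.25, SE 0.54, adjusted p = 2.97e-05). *SAM2* was lower, at 41.6, 41.2 and 49.1 CPM beside 86.3, 78.9 and 139 CPM (-1.21, SE 0.21, adjusted p = 3.61e-05). Both genes of homocysteine synthesis and use among the members were lower as well, *MET2* by a log2 fold change of -1.31 (SE 0.27, adjusted p = 2.87e-04) and *MET6* by -1.06 (SE 0.36, adjusted p = 0.0147). With library size alone, 5 members were called higher and 2 lower, as *MET3*, *MET14* and *MET16* gained a call and *MET6* lost its own, and the calls over all genes went from 2230 higher and 2005 lower to 3243 and 1258 (median moved by 0.42). *MET6* was also not called without *snf1*∆ replicate 3.

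Of the sulfate assimilation genes, *MET10* was called at 24 hr. Its libraries read 64.03, 69.9 and 66.5 CPM in WT and 184, 148 and 138 CPM in *snf1*∆ (log2 fold change 1.23, SE 0.37, adjusted p = 0.00705), so that the 2 subunits of sulfite reductase no longer differed alike, with *MET5* at 27.5 to 31.0 CPM in WT and 28.1 to 32.7 CPM in *snf1*∆. Whether *MET5* and *MET10* differ from each other was not tested. *MET16* had 11.1, 14.6 and 15.6 CPM in WT and 24.1, 23.3 and 40.9 CPM in *snf1*∆ (1.10, SE 0.61, adjusted p = 0.118). *MET3* and *MET14* had log2 fold changes of 0.57 (SE 0.30) and 0.64 (SE 0.37), neither called. These 3 genes were called higher too without the pair of 48 hr libraries, making 8 members (5 higher, 3 lower, 73.5% of all genes).

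JS1416 was then set against *snf1*∆ at 24 hr, with which it shares the deletion. Of the members, 5 were called, 2 higher and 3 lower (47.5% of all genes, 20.1% higher and 27.4% lower). This comparison and that of *snf1*∆ with WT use the same *snf1*∆ libraries, so their values are given side by side and their signs are not independent. *MET10* was lower in JS1416 at 49.0 and 46.5 CPM (log2 fold change -1.71, SE 0.43, adjusted p = 0.00304), below every WT library. *MET2* was higher at 171 and 142 CPM (1.29, SE 0.29, adjusted p = 0.00124), and *SAM2* at 85.6 and 91.9 CPM (1.01, SE 0.22, adjusted p = 9.77e-04), both within the range of WT. *SAM1* lay between the strains at 90.8 and 89.2 CPM, below every *snf1*∆ and above every WT library (-1.32 against *snf1*∆, SE 0.57, adjusted p = 0.0650).

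*MET6* in JS1416 lay below every library of both other strains, as *MET10* did. It had 99.7 and 119 CPM in JS1416, beside 352, 337.4 and 286 CPM in *snf1*∆ and 638, 627 and 771 CPM in WT, and was the lowest in JS1416 of the 3 strains (-1.57 against *snf1*∆, SE 0.43, adjusted p = 0.00477). *MET5*, at 18.2 and 14.9 CPM, was also below both other strains (-0.88 against *snf1*∆, SE 0.34, adjusted p = 0.0412), a call lost in 7 of 14 alternative settings. Scaling mattered here, since with library size alone the median of all genes moved by -0.82, *MET2* and *SAM2* were no longer called and 6 members were called lower, and the calls over all genes went from 1332 higher and 1813 lower to 500 and 4388. *MET6* was not called without JS1416 replicate 1 (adjusted p = 0.0594), where the lone JS1416 library was taken to vary like the other groups. Leaving out the pair of 48 hr libraries gave 7 calls (62.2% of all genes), with *SAM1* (-1.32, adjusted p = 6.05e-06) and *MET14* (-0.71, adjusted p = 0.00773) added as lower.

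Against WT at 24 hr, JS1416 differed in 2 members, 1 in each direction (43.0% of all genes, 20.2% higher and 22.7% lower). *MET6* was 6.22-fold lower (log2 fold change -2.64, SE 0.45, adjusted p = 8.49e-05) and ranked 131st of all genes by absolute change, and *SAM1* was 3.82-fold higher (1.93, SE 0.56, adjusted p = 0.00862). The sulfate assimilation genes had none called, with a median of -0.05 beside -0.06 over all genes. *MET16*, at 29.4 and 27.6 CPM, was above every WT library (1.03, SE 0.66, adjusted p = 0.218). Without the pair of 48 hr libraries, 5 members were called (57.2% of all genes), *MET16* higher and *MET5* and *MET10* lower being added. With library size alone, *MET5* was called lower, and the calls over all genes went from 1339 higher and 1504 lower to 713 and 2628.

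By 48 hr, WT had changed less. Between 24 and 48 hr, 2 members were called in WT, both higher (39.3% of all genes, 19.6% higher and 19.8% lower), namely *SAM1* from 26.9, 21.8 and 22.2 to 67.8, 92.4 and 40.4 CPM (log2 fold change 1.50, SE 0.52, adjusted p = 0.0275) and *MET14* from 9.36, 10.1 and 11.5 to 25.0, 27.3 and 14.8 CPM (1.10, SE 0.36, adjusted p = 0.0208). Neither was called when any of 4 single libraries, WT replicates 1 and 2 at 24 hr and at 48 hr, was left out. *SAM1* also lost its call without WT replicate 3 at 24 hr (adjusted p up to 0.119 over these cases). *MUP1* had 213, 276 and 140.0 CPM at 48 hr (1.12, SE 0.46, adjusted p = 0.0591). Without the pair of libraries of the other strains, 7 members were called in WT (55.1% of all genes), *MUP1* also higher and *MET5*, *MET10*, *MET2* and *MET6* lower. The calls over all genes, 1294 higher and 1309 lower, went to 2853 and 244 with library size alone, where *MET3* and *MUP1* were called higher too, and to 1551 and 906 with upper-quartile scaling.

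In *snf1*∆ as labelled, 4 members rose between 24 and 48 hr (41.4% of all genes, 19.8% higher and 21.5% lower): *MET16*, *MET2*, *MET14* and *SAM2*. *MET16* went from 24.1, 23.3 and 40.9 CPM to 129, 145 and 20.7 CPM (log2 fold change 1.71, SE 0.58, adjusted p = 0.0230), and its low value is that of the library labelled replicate 3. *MET2* went from 60.1 to 66.4 CPM to 199, 247 and 121 CPM (1.56, SE 0.28, adjusted p = 1.73e-04). Without the pair of libraries, 8 members were called (53.9% of all genes). *MET16* (2.17) and *MET2* (1.80) then rose more, *MET3* (0.84) and *SAM1* (0.97) were also called higher, and *MUP1* (-1.27) and *MET10* (-0.42) were called lower. The call of *MET16* was lost in 6 of 16 alternative settings, namely library size alone, only the groups compared, and without replicate 1 or 2 at 24 hr or at 48 hr (adjusted p up to 0.118). *SAM2* lost its call with library size alone (adjusted p = 0.227), where 2 members were called higher and 1, *MET10*, lower, and the calls over all genes went from 1313 higher and 1423 lower to 624 and 2675.

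At 48 hr, the mean of the 2 strains without *SNF1* was compared with WT, and 7 members were called, 6 higher and 1 lower (40.8% of all genes, 20.0% higher and 20.8% lower). *MET16* had 16.8, 14.8 and 19.9 CPM in WT, 129, 145 and 20.7 CPM in *snf1*∆ and 162, 22.3 and 34.1 CPM in JS1416 (log2 fold change 2.33, SE 0.54, adjusted p = 0.00191). *SAM1* had 67.8, 92.4 and 40.4 CPM in WT, 421, 459 and 108 CPM in *snf1*∆ and 472, 98.2 and 85.4 CPM in JS1416 (2.02, SE 0.47, adjusted p = 0.00194). For both genes, 3 of the 6 libraries without *SNF1* were far above the rest, and 1 of these 3 is labelled JS1416. *MUP1* went the opposite way, with 213, 276 and 140.0 CPM in WT, 28.0, 42.7 and 145 CPM in *snf1*∆ and 48.5, 146 and 129 CPM in JS1416 (-1.25, SE 0.39, adjusted p = 0.0136).

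The other calls at 48 hr were *MET3* (0.97, SE 0.26), *MET14* (0.97, SE 0.30), *MET5* (0.83, SE 0.28) and *MET2* (0.64, SE 0.24), with adjusted p values from 0.00574 to 0.0364. That of *MET2* was lost in 9 of 19 alternative settings (adjusted p up to 0.516), including without any 1 of 6 libraries, the WT ones, *snf1*∆ replicates 1 and 2 and JS1416 replicate 1. *MET5* lost its call in 4 of 18, including without WT replicate 3 or *snf1*∆ replicate 2, *MET14* without WT replicate 3 and *MUP1* without WT replicate 2. *MET10* and *MET6* missed the threshold (0.82 and -0.75, adjusted p = 0.0542 and 0.0531). Without the pair of libraries, both were called and the count was 9 (49.4% of all genes), at smaller differences for *MET16* (1.74) and *SAM1* (1.61). None of the members was called in a fit of the 48 hr groups alone, and with library size alone 2 were called higher and 3 lower, the median of all genes moving by -0.45 and the calls over all genes going from 1326 higher and 1373 lower to 533 and 3140.

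**Figure D4:**
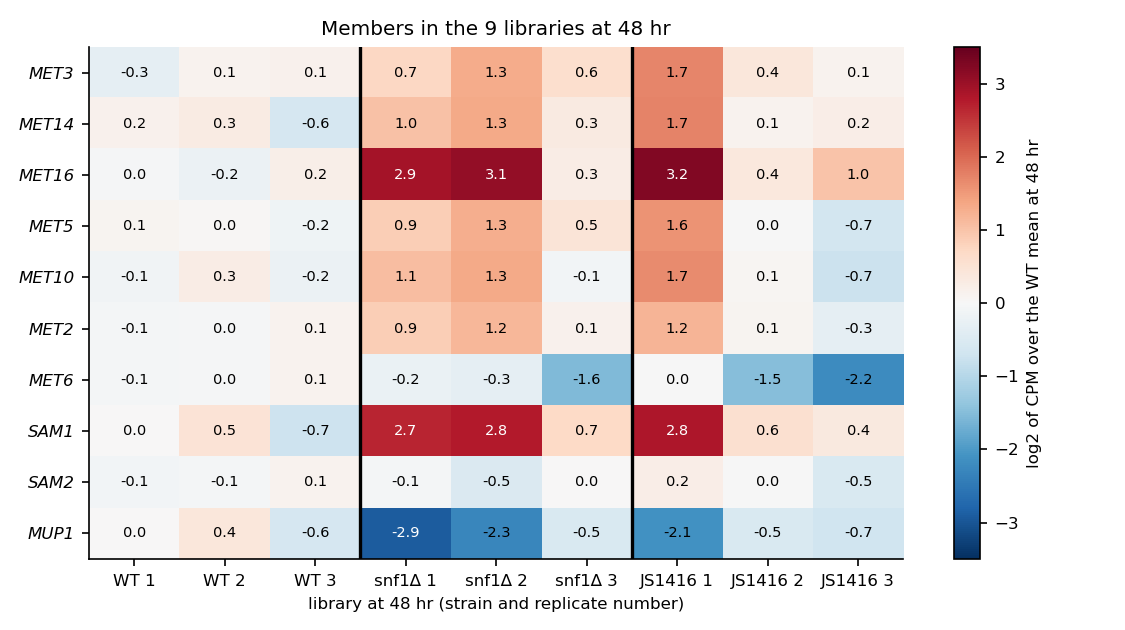
Log2 of the CPM over the WT mean for each member in the 9 libraries at 48 hr, with strains separated by lines, red above and blue below WT. The column labelled JS1416 1 has the pattern of *snf1*∆ 1 and 2, with *MET16* and *SAM1* between 2.7 and 3.2 and *MUP1* at -2.1, and the column labelled *snf1*∆ 3 has that of JS1416 2 and 3, with *MET6* at -1.6.

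JS1416 and *snf1*∆ as labelled did not differ in any member at 48 hr. No gene of the 6616 was called (0.00%) in edgeR or by DESeq2, and at an unadjusted p under 0.05 there were 275 genes (4.16%) and 0 members. Each member overlapped between the strains, with the 2 libraries that resemble the other strain included. Overlap over all genes was not counted. Without the 2 libraries that stood apart from their labels, 9 members were called (45.7% of all genes), 8 lower and 1 higher in JS1416. *MET16* (log2 fold change -2.50, adjusted p = 5.07e-08) and *SAM1* (-2.23, adjusted p = 3.48e-08) were the lowest, *MET6* (-1.46) and *MET10* (-1.30) followed, and *MUP1* was higher (1.99, adjusted p = 1.36e-04). *SAM2* was not called in either fit. This contrast rests on 2 libraries a strain, chosen after their profiles were seen.

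The surrounding pathway was read from 30 other genes in 5 lists, of which 29 were tested, *MET17* being the exception. At log, 3 of the 29 were called in *snf1*∆ against WT, all higher (1.69% of all genes): *MET28*, a cofactor of Met4 (log2 fold change 1.49, SE 0.32, adjusted p = 0.0126), the sulfate permease gene *SUL2* (1.11, SE 0.29, adjusted p = 0.0444) and *STR2* for cystathionine gamma-synthase (0.60, SE 0.14, adjusted p = 0.0274). The median of the 29 was 0.33, beside -0.04 over all genes. The list of 5 genes headed sulfate uptake and siroheme synthesis, the cofactor of sulfite reductase, also holds *MET22*, which acts in neither. The median of this list was 0.77, with 1 called.

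From log to 24 hr in WT, the 4 other permeases of sulfur amino acids were all called higher, with a median of 3.08 beside 0.10 over all genes. The largest was *MUP3*, for the low-affinity methionine permease (4.72, SE 0.35, adjusted p = 8.85e-11), whereas *MUP1*, for the high-affinity one, was lower. *MET30*, whose product acts on Met4, also rose (3.55, SE 0.22, adjusted p = 5.18e-12). *SAH1*, which splits the product left after AdoMet gives up its methyl group, fell by 4.77 on the log2 scale (SE 0.26, adjusted p = 6.52e-13) along with *SAM1* and *SAM2*. Of all 29 genes, 14 were called higher and 9 lower, shares near those of all genes (41.2% higher and 38.5% lower), so the counts do not set the lists apart.

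At 24 hr, 8 of the 29 were called higher and 9 lower in *snf1*∆ than in WT, where 33.7% and 30.3% of all genes were, so these counts are near the background. The higher ones included 5 of the 8 tested genes of homocysteine and methionine synthesis, led by *HOM3* (2.76, SE 0.47, adjusted p = 3.50e-05) and *HOM2* (2.69, SE 0.33, adjusted p = 6.14e-07), the aspartate kinase and the next enzyme on the way to homoserine, the substrate of Met2. *MUP3* (-3.56, SE 0.33, adjusted p = 1.20e-08) and *SUL2* (-1.19, SE 0.29, adjusted p = 0.00116) were lower. In JS1416 against *snf1*∆, 4 were called higher and 10 lower (20.1% and 27.4% of all genes), with *MUP3* the most increased (2.55, SE 0.34, adjusted p = 4.63e-06) and *MET13*, which supplies the methyl group for Met6, the most decreased (-1.40, SE 0.20, adjusted p = 1.03e-05). At 48 hr, 7 were called higher and 6 lower in the strains without *SNF1* (20.0% and 20.8% of all genes), and *HOM3* (3.26, SE 0.45, adjusted p = 1.11e-05) led the higher ones.

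Over the means of the 9 groups, a pattern was taken as the mean of *MET3*, *MET14*, *MET16*, *MET10* and *MET5*, each scaled to the same spread. Outside the members and lists, the genes most like it were *SNU66* (Pearson r = 0.87), *IFH1* (0.79), *ECM32* (0.78), *PUS9* (0.78) and *VPS3* (0.76) of 5750 genes compared. The members themselves ranged from 0.85 for *MET14* and 0.83 for *MET3* to -0.30 for *MET2*. The sulfate assimilation genes are part of that mean, and the other members, such as *MET2*, are not. The groups share libraries and scaling, so these are descriptions over 9 points.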

How the data were processed

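RNA-seq libraries (24, of 3 strains at 3 times) were made from poly(A) RNA. As given in the methods of the study and its processing notes, the authors combined lanes, aligned the single-end reads (75 bp) against sacCer3 using Bowtie2, took counts over ORFs using bedtools multicov and deposited these raw counts, without any scaling. The strand option of the counting is not given in the sources used here, so reads antisense to a member may be included. All count columns were used (0 left out).

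The model was fitted with edgeR 4.0.16 in R 4.3.3: TMM scaling, filterByExpr (6616 of 6692 genes kept), 1 quasi-likelihood model with 9 groups, contrasts between groups and Benjamini-Hochberg adjustment over all tested genes. The common dispersion was 0.0378. CPM used TMM-scaled library sizes. An SE is the absolute log2 fold change divided by the square root of F. Total counts of 747098 to 29070805 set the precision, and the shallowest library had 9 to 98 counts for each member. The script was tested on simulated counts. The methods describe triplicate cultures with aliquots taken at log and 24 hr, so libraries of these times may come from the same cultures. The labels do not tie them, and the model treats all libraries as independent.

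The members and lists were chosen with earlier results of these data known. All members were named. Named of the lists were *MET17*, *MET22* and up to 4 genes called in each direction, by size, with a mean log2 CPM of at least 3. Motifs were searched with Python 3.11.15 in the R64 genome (RefSeq), whose sequence is that of sacCer3. The alternatives were DESeq2 1.42.0, scaling by library size alone, by upper quartiles or by RLE, filtering on 10 counts in every library or not at all, robust estimation, a replicate block, a fit of only the groups compared, and leaving out each library or the pair that stood apart. The test without 1 of the 2 JS1416 libraries at 24 hr was added after seeing the data.

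Equal replicate numbers were checked for pairing in 28 pairs of groups, 21 of them with 3 numbers. Only WT and *snf1*∆ at log had all correlations of deviations over 0.1 (0.13 to 0.51), and with the replicate block no member changed its call there, nor between log and 24 hr in either strain.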

Additional observations from a re-analysis of the deposited data

Results flagged for a closer look

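The change from log to 24 hr differed between *snf1*∆ and WT in 4 members, by a test of the difference itself (edgeR's quasi-likelihood test, Benjamini-Hochberg corrected, 3 libraries in each of the 4 groups). Of all tested genes, 54.9% were called in this comparison, 29.3% higher and 25.6% lower, so the count does not set the members apart. The difference, *snf1*∆ minus WT on the log2 scale, was 3.07 for *SAM1* (adjusted p = 0.00120), -1.58 for *MET6* (adjusted p = 0.0129), -1.57 for *MET2* (adjusted p = 0.00175) and -1.38 for *MET5* (adjusted p = 0.00788). All 4 calls were kept under every alternative that could be fitted for them, with adjusted p values of at most 0.0340.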

How the results depend on the processing

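Among single-gene values under the settings that keep every library or drop the pair at 48 hr, 1438 were classed as the same. A call was lost for 31 and gained for 77, and 3 were classed as reversed. Signs of small values that were not called are not covered by these counts. With library size alone, the median of all genes moved by -0.51 for WT at 24 hr against log, beyond the value of *MET16* there (0.16). In a fit of only the groups compared, the members called were 6 for WT at 48 hr against 24 hr, 7 for the difference of the 24 hr responses, 7 for *snf1*∆ against WT at log, 8 at 24 hr, 8 for JS1416 against *snf1*∆ and 5 against WT at 24 hr, and 0 for both strains against WT at 48 hr. In the same order, 3182, 4478, 1052, 4672, 3950, 3887 and 1232 of all genes were called in these fits. The main fit called 2603, 3632, 140, 4235, 3145, 2843 and 2699 of all genes. Without the pair, the members called were 7, 7, 7 and 8 for the first 4 of these comparisons (55.1%, 66.7%, 9.12% and 73.5% of all genes). They were 5 for JS1416 against WT at 24 hr (57.2%), 8 for *snf1*∆ at 48 hr against 24 hr (53.9%) and 9 for JS1416 against *snf1*∆ at 48 hr (45.7%). With library size alone, 4 members were called in WT at 48 hr against 24 hr, beside 3097 of all genes. Leaving out 1 library gave 0 to 3 calls for WT at 48 hr against 24 hr, 2 to 3 for *snf1*∆ against WT at log, 3 to 4 for JS1416 against *snf1*∆ at 24 hr, 4 to 8 for both strains against WT at 48 hr and 0 to 7 for JS1416 against *snf1*∆ at 48 hr. This last comparison had reversals, of values that were not called, and *MET6* in *snf1*∆ at 48 hr against 24 hr, also not called, went from -0.22 to 0.10 without the pair. *MET14* went to -0.0030 with only the groups compared, and without the pair *MET3* went to -0.66 and *MET14* to -1.04.

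With 1 library left out there, the log2 fold changes ranged from -0.53 to 0.50 for *MET3*, from -0.79 to 0.45 for *MET14*, from -1.98 to 0.18 for *MET16*, from -0.99 to 0.25 for *MET5*, from -1.03 to 0.18 for *MET10*, from -1.18 to 0.0099 for *MET6* and from -0.037 to 0.27 for *SAM2*. Counts of all genes moved by over 1.5 times for *snf1*∆ against WT at log (140, with 214 by DESeq2, 1052 with only the groups compared and 603 without the pair), *snf1*∆ at 48 hr against 24 hr (2736, 1713 with only the groups compared), JS1416 against *snf1*∆ at 24 hr (3145, 4888 with library size alone), both strains against WT at 48 hr (2699, 1232 with only the groups compared) and JS1416 against *snf1*∆ at 48 hr (0, 3026 without the pair). A filter of 10 counts in every library removed *MET5*, which has 9 in the shallowest. The replicate block called 4 members at log, as the fit without it did, and where the numbers did not pair the samples it added calls for *MET5* in JS1416 against WT at 24 hr, *SAM1* in JS1416 against *snf1*∆ at 24 hr, *MET6* at 48 hr and *MUP1* in WT at 48 hr. The cause of these shifts was not tested.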
